A study of Bos indicus with 72 samples.

Results

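The left ovary was sequenced in 12 Brahman heifers, a Bos indicus beef breed, of which 6 were labelled post-puberty and 6 pre-puberty. The 12 left ovary libraries, 1 per heifer, were chosen by tissue label and are part of 72 libraries from 6 tissues of the same 12 animals. The post-puberty animals were 2047, 2056, 2057, 2059, 2061 and 2064, and the pre-puberty animals were 2046, 2048, 2049, 2054, 2055 and 2060. The labels record no treatment, age or stage of the oestrous cycle, and they do not say which ovary had ovulated. Animals 2054 and 2059 carry the opposite puberty label in liver and uterus.

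A heifer reaches puberty with her first ovulation. Each ovary holds follicles, in which granulosa and theca cells surround an egg and make oestrogen and androgens. The follicle that ovulates turns into a corpus luteum, a short-lived gland that makes progesterone. It lies in the ovary that ovulated, so that the left and right ovary of a cycling heifer can differ in what they hold. In whole-ovary RNA a change in the share of a cell type and a change of RNA per cell cannot be told apart.

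The gene reads per left ovary library numbered 192410 to 272306 in post and 185848 to 251765 in pre animals, at most 0.681% of all reads of a library. None of 7 library measures, among them gene reads, genes detected and the share of reads in no gene, differed between post and pre beyond the spread (exact permutation test over every split of the 12 libraries, two-sided, smallest possible p 0.00216; adjusted p = 0.835 for each). The share of reads not aligned uniquely was 31.8% in post 2047, 22.2% in post 2059 and 50.3% in pre 2060, against 8.65% to 10.3% in the other 9 libraries. These 3 libraries also had the smallest shares of reads in genes, 0.496%, 0.562% and 0.352%. The files give identifiers without gene names, and none of the 24616 identifiers matched the table of names at hand. No gene is therefore described by function, and the tissue label could not be set against marker genes.

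After puberty no gene of the left ovary was called different. Of 1922 genes with adequate counts, 0 passed an adjusted p of 0.05 (0% called), by edgeR's quasi-likelihood test. At an unadjusted p of 0.05 there were 101 genes (5.25%), 50 higher and 51 lower in post. That is near the share that a cutoff of 0.05 gives where nothing changes. DESeq2, which tested 15782 genes, called 0 with 222 at an unadjusted p under 0.05. Voom, on the 1922 genes, called 0 with 101 at an unadjusted p under 0.05. Leaving out pre 2060, or animals 2054 and 2059 together, gave 0 calls in edgeR as well. The log2 change, post over pre, had a median of -0.01 and quartiles of -0.21 and 0.21, and 36 genes were beyond 1 in either direction. For 1329 genes (69.1%) the 95% interval of the change lay within 2-fold either way, and for 1893 genes (98.5%) it lay within 4-fold. Without a filter on low counts edgeR tested 15815 genes and called 4, or 0.0253%, of which 2 were higher and 2 lower in post.

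**Figure D1:**
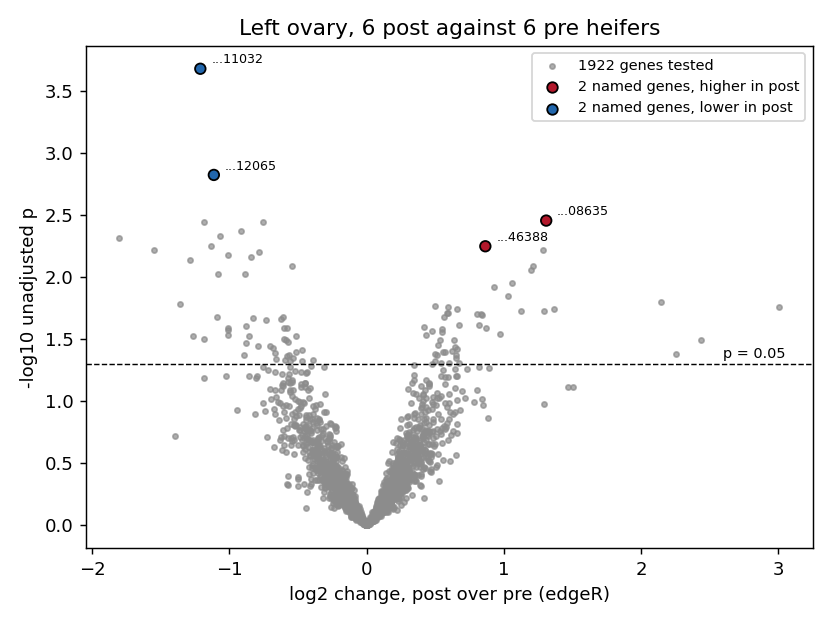
Log2 change, post over pre (x axis), and unadjusted p on a -log10 scale (y axis) for the 1922 left ovary genes tested, with the p of 0.05 dashed. Above the dashed line lie 50 genes higher and 51 lower in post, together 5.25% of those tested. The 4 coloured points are the genes named by identifier suffix.

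The gene with the smallest p, ENSBTAG00000011032, was lower in post. In the post left ovaries of 2047, 2056, 2057, 2059, 2061 and 2064 it had 227.6, 201.5, 129.0, 218.6, 139.9 and 315.6 CPM (counts scaled to gene reads per library and TMM factors). In the pre left ovaries of 2046, 2048, 2049, 2054, 2055 and 2060 it had 753.8, 580.4, 309.3, 424.2, 331.7 and 459.9 CPM. The groups overlapped only in that post 2064 lay just above pre 2049. Its mean was 205 ± 67.8 CPM in post and 477 ± 167 CPM in pre (SD, n = 6 each), a log2 change of -1.21 with a standard error of 0.26 (edgeR adjusted p = 0.404). The right ovaries of the same animals gave 187 ± 90.7 CPM in post and 413 ± 194 CPM in pre, a log2 change of -1.12 with a standard error of 0.35 (edgeR adjusted p = 0.103). ENSBTAG00000011032 was 1 of the 4 genes called in the left ovary without a filter on low counts (edgeR adjusted p = 0.0107), and its log2 change stayed between -1.48 and -0.91 in every alternative run, with adjusted p from 0.0107 to 0.998.

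A second gene lower in post, ENSBTAG00000012065, had 48.4, 82.4, 59.5, 68.0, 29.98 and 59.5 CPM in the left ovaries of post 2047, 2056, 2057, 2059, 2061 and 2064. Pre 2046, 2048, 2049, 2054, 2055 and 2060 had 173.6, 99.0, 62.9, 164.1, 111.9 and 144.1 CPM. Only pre 2049 fell inside the post range. The log2 change was -1.11 with a standard error of 0.30 in the left ovary (edgeR adjusted p = 0.869), and -0.995 with a standard error of 0.32 in the right ovary (edgeR adjusted p = 0.109). Within the first and second library set of the file names the left ovary change was -0.44 and -1.71 (edgeR adjusted p from 0.2004 to 0.998 over all alternatives).

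In the other direction, ENSBTAG00000008635 had 121.1, 54.9, 79.4, 63.2, 129.9 and 45.7 CPM in the left ovaries of post 2047, 2056, 2057, 2059, 2061 and 2064. It had 8.47, 54.0, 26.2, 32.0, 51.9 and 22.2 CPM in those of pre 2046, 2048, 2049, 2054, 2055 and 2060. All post libraries but that of 2064 were above every pre library. The counts behind these values were low, 10 to 26 in post and 2 to 13 in pre. The log2 change was 1.31 with a standard error of 0.39 in the left ovary (edgeR adjusted p = 0.869) and 0.94 with a standard error of 0.33 in the right ovary (edgeR adjusted p = 0.137). Within the library sets that the file names give, the left ovary change was 0.43 in the first set and 2.28 in the second (edgeR adjusted p from 0.206 to 0.998 over all alternatives).

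ENSBTAG00000046388 had 174.4, 105.3, 287.7, 262.4, 359.8 and 224.2 CPM in the left ovaries of post 2047, 2056, 2057, 2059, 2061 and 2064. The pre left ovaries had 139.8, 171.0, 120.6, 88.0, 111.9 and 144.1 CPM in 2046, 2048, 2049, 2054, 2055 and 2060. Post 2056 was inside the pre range, and the other post libraries were above it. The log2 change was 0.87 with a standard error of 0.28 in the left ovary (edgeR adjusted p = 0.869) and 0.21 with a standard error of 0.30 in the right ovary (edgeR adjusted p = 0.765).

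**Figure D2:**
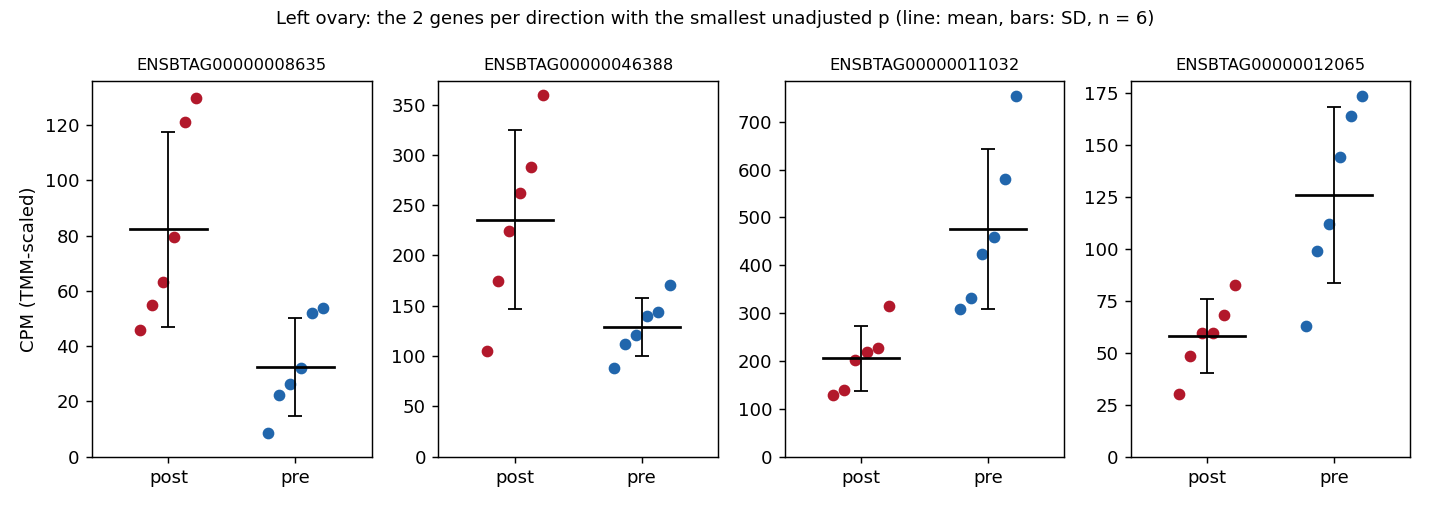
CPM of 4 genes in each left ovary library, 6 post at the left and 6 pre at the right of each panel, with the mean (line) and SD (bars). ENSBTAG00000008635 and ENSBTAG00000046388 lie higher and ENSBTAG00000011032 and ENSBTAG00000012065 lower in post, each with some overlap of the groups.

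The gene with the most counts in every left ovary library, ENSBTAG00000043545, took 13.01% ± 2.12 of the gene reads in post and 11.2% ± 2.33 in pre (SD, n = 6 each; exact permutation test, p = 0.186). Its highest share was 16.7%, in post 2057. Without post 2057 the difference of the shares, post minus pre, was 1.03 percentage points in place of 1.77, and the log2 change was 0.14 (edgeR adjusted p = 0.992). With all libraries the log2 change was 0.34 with a standard error of 0.25 in the left ovary (edgeR adjusted p = 0.942) and 1.64 with a standard error of 0.46 in the right ovary (edgeR adjusted p = 0.0703).

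Because a corpus luteum need not lie in every post left ovary, the spread among the post libraries was set against that among the pre libraries. Gene by gene no difference of spread was called. The absolute deviation of log2 CPM from the group mean was larger in post for 1021 genes and larger in pre for 901, with a median difference of 0.01. None of the 1922 genes passed an adjusted p of 0.05 in limma (0% called), and 158 had an unadjusted p under 0.05, of which 91 were more spread in post and 67 in pre. With no filter on low counts, every gene with any reads was tested, 15815 in all, most of them below the filter. Of these 1015 were called, 480 more spread in post and 535 more spread in pre. The test compares average deviations, and a gene raised in 1 ovary alone is not what it is made to call. The mean distance between libraries of a group, 1 minus Spearman's rho, was 0.190 in post and 0.182 in pre (exact permutation test, two-sided, p = 0.764). Its difference was 0.0080, and without post 2057 it was -0.0074.

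The smallest p for a wider spread in post belonged to ENSBTAG00000004416. Its level was 67.8, 69.4 and 65.0 CPM in post 2047, 2057 and 2061, and 9.16, 9.72 and 18.3 CPM in post 2056, 2059 and 2064. The pre libraries lay between 38.1 and 58.5 CPM. The post left ovaries thus fell on both sides of the pre range, 3 above and 3 below, on 2 to 14 counts a library. The difference of spread, post minus pre, was 0.81 on the log2 scale with a standard error of 0.21 (limma adjusted p = 0.279). With no filter on low counts it was 0.74 and was called (limma adjusted p = 0.0066), and the adjusted p over all alternatives ran from there to 0.986, the value with deviations from the median. In the right ovary the post mean was 64.9 ± 11.8 CPM and the pre mean 39.2 ± 11.97 CPM (SD, n = 6 each).

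Each left ovary was also set against all the others, and that of post 2057 stood apart. In the left ovary of post 2057, 63 genes with at least 20 counts were more than 2-fold above every other left library. The other post left ovaries had 1, 1, 3, 13 and 2 such genes (2047, 2056, 2059, 2061 and 2064), and the pre left ovaries had 0 to 18, the highest in 2046. The 63 genes exceeded the next library by a median of 3.12-fold and by up to 32.5-fold. The mean absolute deviation from the group mean was 0.50 on the log2 scale in post 2057, 0.35 to 0.38 in the other post and 0.34 to 0.40 in the pre libraries. With library sizes alone in place of TMM factors the count in post 2057 was 38, against 26 in pre 2046. The TMM factor of post 2057 was 0.740, the lowest of the left libraries, and it had the most gene reads, 272306. No single-library test was run. A single library with many such genes also occurred among the right ovaries, where post 2047 had 65 by the same rule, with a TMM factor of 0.402 and 69.5% of its gene reads in its top 10 genes.

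**Figure D3:**
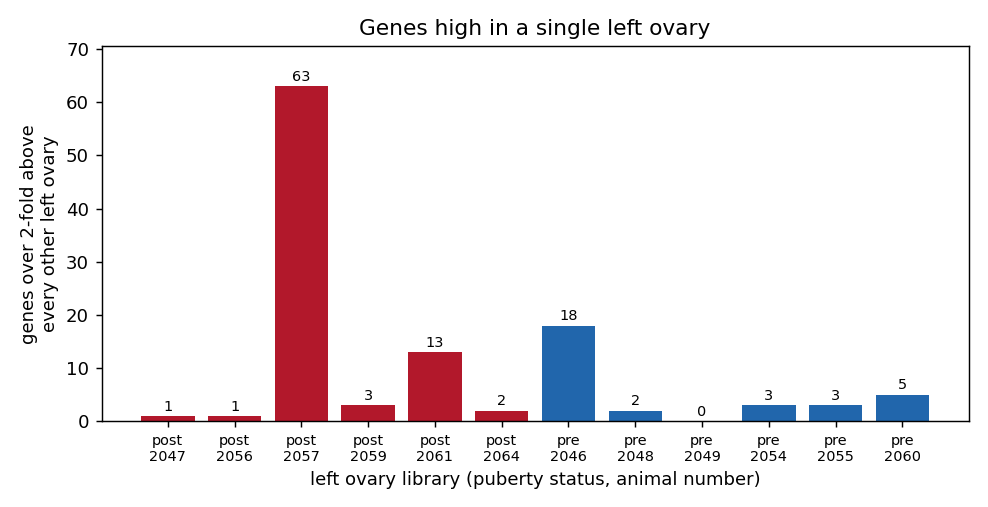
Number of genes with at least 20 counts that are more than 2-fold above every other left ovary library (y axis), for 6 post libraries at the left (red) and 6 pre libraries at the right (blue). Post 2057 has 63 such genes, pre 2046 has 18 and post 2061 has 13, and the rest have 0 to 5.

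The clearest of these genes was ENSBTAG00000043960. It had 1637 CPM, from 330 counts, in the left ovary of post 2057. In the left ovaries of post 2047, 2056, 2059, 2061 and 2064 it had 9.69, 45.8, 4.86, 4.997 and 0 CPM, and in the pre left ovaries 10.5 to 40.0 CPM. A single left ovary thus carried most of its reads, and the other left libraries had 0 to 10 counts each. The filter on low counts, which asks for enough reads in several libraries, kept it out of the left ovary test. In the right ovaries of post 2047, 2056, 2057, 2059, 2061 and 2064 it had 133.8, 61.5, 684.9, 300.3, 183.4 and 1233 CPM, and in the pre right ovaries 7.42 to 76.1 CPM. There it was called, with a log2 change of 3.89 and a standard error of 0.70 (edgeR adjusted p = 0.0062).

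For 3 further genes, chosen after their values were seen, all left ovary reads came from post 2057, with 20, 59 and 33 counts there and 0 in the other 11 left libraries. With 3 counts in each other library as the limit that a count of 0 allows, they were at least 5.97-, 17.6- and 9.85-fold higher in post 2057. They were at 0 in all 6 pre right ovaries. In the right ovary of post 2057 they had 32.1, 99.9 and 60.6 CPM. The right ovary of post 2064 had more, 101.3, 125.8 and 129.3 CPM. Those of post 2047 and 2056 also had reads of each gene, and those of post 2059 and 2061 of some.

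The right ovaries of the same animals did change with puberty, and they give a list of genes that no left ovary library helped to choose. Of 2073 genes tested there, edgeR called 44 higher in post (2.12%) and 6 lower in post (0.289%). Left out in turn, post 2047, 2059 and 2061 and pre 2054 gave 29, 21, 89 and 33 calls in place of the 50. The list was chosen on right ovaries, so that its right ovary values are a description. The left ovaries come from the same heifers.

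In the left ovary of post 2057 the 44 genes were a median of 1.96 above the left pre mean on the log2 scale. In the left ovaries of post 2047, 2056, 2059, 2061 and 2064 their medians were -0.08, 0.06, 0.04, -0.12 and 0.19, and in the pre left ovaries -0.17 to 0.15. Post 2057 was thus far above every other left ovary, and post 2064 was slightly above the highest pre library. Over all genes tested the median was -0.05 in post 2057 and between 0.00 and 0.04 in the other left libraries. The same list had right ovary medians of 2.84, 1.07, 1.53, 1.91, 0.70 and 1.74 in post 2047, 2056, 2057, 2059, 2061 and 2064. Post 2047, with the highest right ovary median, had a left ovary at the pre level.

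**Figure D4:**
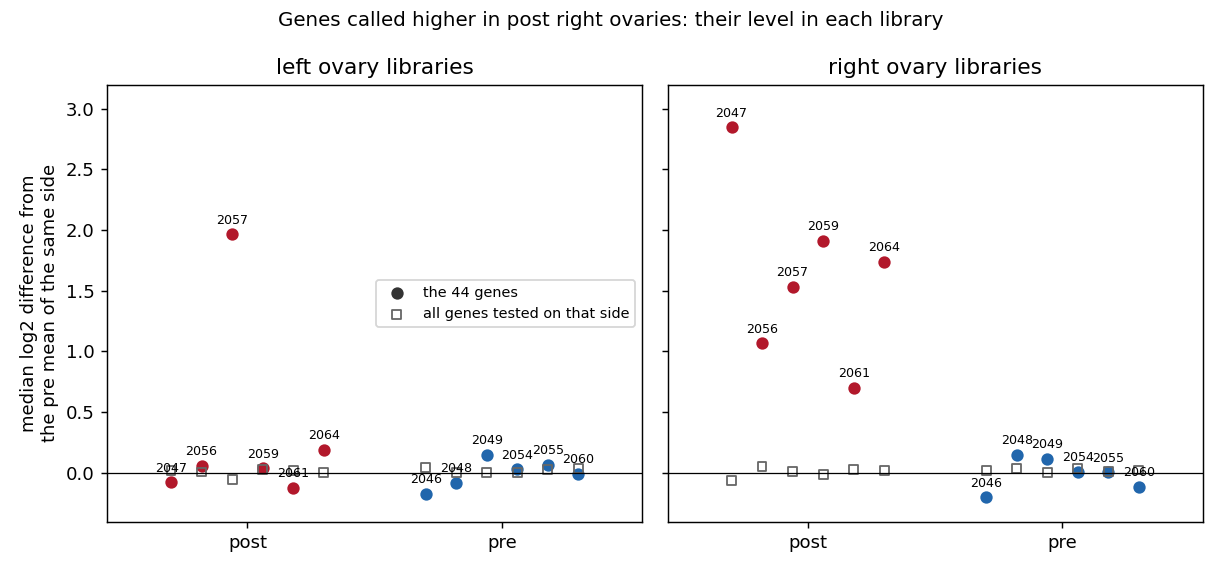
Median log2 difference from the pre mean of the same side (y axis) over the 44 genes called higher in post right ovaries, for each left (first panel) and right (second panel) ovary library, post at the left of a panel and pre at its right, with open squares for all genes tested. In the left panel post 2057 lies at 1.96 and every other library between -0.17 and 0.19, while the right panel, which chose the genes, has all 6 post libraries between 0.70 and 2.84.

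Single genes of the list showed the same split. In the left ovary of post 2057, 37 of the 44 were above the highest pre left library, against 20.7% of all genes tested. In post 2047, 2056, 2059, 2061 and 2064 the count was 5, 11, 8, 6 and 10 of 44, against 11.4% to 16.2% of all genes. In post 2057, 36 of the 44 were more than 2-fold and 22 more than 4-fold above the pre mean, against 7.96% and 1.20% of all genes tested. In the other post left ovaries 1 to 6 of the 44 were more than 2-fold above it, against 1.61% to 4.68% of all genes. In the pre left ovaries the count was 0 to 5, against 1.04% to 3.75%. Post 2056 had the 6, against 1.93% of all genes, and pre 2054 had the 5, against 3.75%. None of the 44 was more than 4-fold above the pre mean in these libraries. The list took 9.35% of the gene reads of the left ovary of post 2057, 2.42% to 2.92% in the other post and 2.56% to 3.44% in the pre left ovaries. The gene of the list with the most reads had 33014 CPM in the left ovary of post 2057, 1705 to 3077 CPM in the other post and 1966 to 4078 CPM in the pre left ovaries. A list called in the right ovaries without animal 2057 held 30 genes, all among the 44. Those 30 were a median of 2.09 above the pre mean in the left ovary of post 2057 and between -0.24 and 0.20 in the other post left ovaries. With pre 2060 left out of the pre mean, the 44 genes had a median of 1.92 in post 2057.

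The 6 genes called lower in post right ovaries had a median of -1.22 in the left ovary of post 2057. Their medians were between -0.55 and -0.01 in the other post left ovaries and between -0.25 and 1.15 in the pre left ovaries. Post 2057 was thus the lowest here and the highest for the 44 genes.

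In the left ovary test itself, 33 of the 44 genes had adequate counts. Their log2 change was above 0 for 32 and had a median of 0.57, against 939 of 1922 and a median of -0.01 over all genes. None was called, and 8 of the 33 had an unadjusted p under 0.05, against 5.25% of all genes. Without the left ovary of post 2057 the median was 0.10, with 22 of 33 above 0. The 6 genes lower in post right ovaries were all tested and all below 0, with a median of -0.44. Of these 6, 0 were called and 3 had an unadjusted p under 0.05, against the same 5.25% of all genes. Without the left ovary of post 2057 their median was -0.31, with 1 of 6 above 0. Over all genes, leaving it out gave 2053 genes tested and 0 called in edgeR, with 84 at an unadjusted p under 0.05.

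Read the other way, the 63 genes high in the left ovary of post 2057 had higher means in post right ovaries, which had no part in choosing them. In the right ovaries the post mean was above the pre mean for 63 of 63, and for 62 of 63 without the right ovary of 2057. Among all 4867 genes with at least as many right ovary reads the share was 52.7%. The post mean was more than 2-fold above the pre mean for 53 of 63 (84.1%), against 9.27% of the 4867 genes. Of the 63 genes, 42 were tested in the right ovary, and 25 of those were called higher there, beside the 2.12% of all genes. These 25 are also among the 44 genes described above, so that this count repeats that overlap and is not separate from it. Without the right ovary of 2057, 17 of the 42 were called higher, beside 30 of all 2202 genes tested in that run. For 12 of the 42 every post right ovary lay above every pre right ovary, against at most 1.40% of all genes tested there. With the right ovary of 2057 left out the count was also 12, against 1.40% of all genes tested there. No other right ovary was left out of these counts. The right ovary of 2057 itself was the highest right library for 2 of those 42, near the 5.98% of all genes tested there. The 13 genes high in post 2061 alone and the 18 in pre 2046 alone had 0 genes called higher in the right ovary, of 3 and 8 tested. With so few tested, 0 was likely at the 2.12% called among all genes. Whether these counts differ from the 25 of 42 for post 2057 was not tested.

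**Figure D5:**
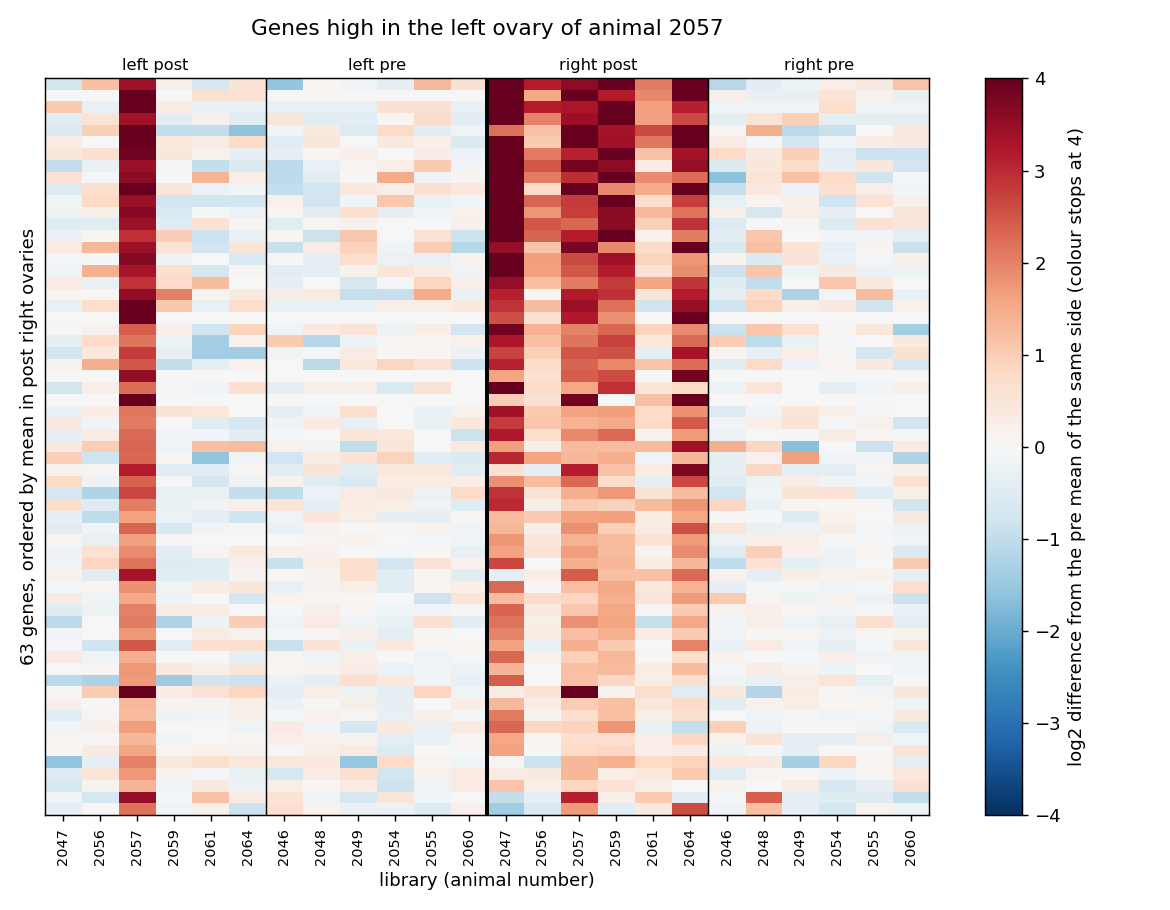
Log2 difference from the pre mean of the same side (colour, stopping at 4 either way) for the 63 genes high in the left ovary of post 2057 (down the page, ordered by their mean in post right ovaries) in 24 libraries: left post, left pre, right post and right pre. The column of left post 2057, which chose the genes, is raised throughout. The right columns of post animals are raised unevenly, with many genes near the pre level in 2056 and 2061. The post mean of the right ovaries is above the pre mean for 63 of 63 genes.

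Across 1922 genes, the left ovary of post 2057 was closer to its own right ovary than was any other pair of a left and a right library. Spearman's rho was 0.924, the highest of 144 pairs, and the next was 0.893. Its mean rho was 0.845 with the post right ovaries, its own included, and 0.783 with the pre right ovaries. With the post right ovaries of other animals rho was 0.799 to 0.870, and with the pre right ovaries 0.740 to 0.826. Each of the other 11 left libraries had a higher mean rho with the pre right ovaries. Between the left and right libraries of 2057 the mean chi-square per gene was 3.82, where sampling noise gives 1. It was the lowest of the 12 same-animal pairs, whose median was 6.87. These correlations run across genes, which are not independent replicates.

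Whether the change with puberty differed between the left and the right ovary was tested over 24 libraries, with the animal as a block. Of 2476 genes, edgeR called 0 (0% called), and 136 had an unadjusted p under 0.05. DESeq2 called 0 as well. This result rested on 1 animal: without both ovaries of 2057, 11 of 2514 genes were called (0.438%), and for all 11 the change was lower in the left ovary. The difference, left minus right, had a median of -2.47 for these 11 genes and lay between -4.41 and -1.201 on the log2 scale (edgeR adjusted p from 0.0022 to 0.047). Without animal 2057 their log2 change with puberty was 1.06 to 4.50 in the right ovary and, for the 9 tested there, -1.16 to 0.37 in the left ovary. All 11 were higher in the left ovary of 2057 than in any other left library. With 2057 kept, the median difference of the 11 was -1.83, and the lowest adjusted p among them was 0.880. No other animal, left out in turn, gave a call.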

How the data were processed

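TruSeq libraries of total RNA were read from both ends, per the labels' protocols. Each library came as 1 deposited file of raw counts for 24616 genes. The submitters' processing notes name the build UMD3.1, and the file names hold the name of the htseq-count program. Strand use, annotation and aligner: not given in the sources used here, so that overlapping, antisense or near-identical genes may share reads. Rows that name no gene (in no gene, ambiguous, not unique) stayed out of library sizes and tests: they held 99.3% to 99.6% of left ovary reads. Few genes therefore had adequate counts.

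Groups were taken from the puberty label, with each animal as a replicate. edgeR 4.0.16 (quasi-likelihood, TMM, filterByExpr, robust dispersions) was the test, with limma 3.58.1 on absolute deviations of log2 CPM (prior count 2) for spread. DESeq2 1.42.0 and voom were alternatives. p-values were two-sided and Benjamini-Hochberg adjusted over all genes tested, with a threshold of 0.05. Scripts were tested on simulated data. Genes named were the 2 smallest p in each direction with at least 5 CPM in the higher group, and the first by spread, by single ovary (at least 100 counts) and by total counts. Gene lists and cell type markers drawn up from textbook knowledge could not be used without names. The members and lists were chosen with earlier results of these data known.

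The left and right ovary share a labelled animal number, and the deviations of same-numbered ovaries from their group means were compared over 1813 genes. The median r was 0.279 within an animal, above 0.1 in 11 of 12 animals and at least -0.078, against -0.027 between animals. The same-numbered ovary was the best match in 7 of 12 animals. Post 2047 had the -0.078. Across genes, its left ovary had a Spearman's rho of 0.706 with its own right ovary and 0.863 with that of pre 2049. No pair of left libraries of a group was a duplicate, with a mean chi-square per gene of at least 3.72. File names split the left libraries into 2 sets with both groups in each, tried as a term and separately. The second set held post 2047, 2059 and 2061 and pre 2046, 2054 and 2060. It thus held the libraries with many reads not aligned uniquely, post 2047, post 2059 and pre 2060.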

Additional observations from a re-analysis of the deposited data

Results flagged for a closer look

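Of 36 sets of 6 values examined, 10 had a highest or lowest value far from the other 5. Chance gives about 1 in 20 independent sets, but these are not independent: ENSBTAG00000043960 was chosen for being high in 1 ovary, and the 3 shares in pre 2060 are parts of 1 total. Of the 10, 6 concerned post 2057, 3 pre 2060 and 1 pre 2046.

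In post 2057 the mean absolute deviation was 0.50 on the log2 scale, with 0.38 for the nearest post library. Its mean rho with the other post left ovaries was 0.775, with 0.807 for the nearest. It had 63 genes high in it alone, with 13 in the nearest. The median of the 44 genes called higher in post right ovaries was 1.96, with 0.19 in the nearest. ENSBTAG00000043960 had 1637 CPM, with 45.8 CPM in the nearest, and ENSBTAG00000043545 had 225937 CPM, with 141414 CPM in the nearest.

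In pre 2060, 0.352% of reads were in genes, with 0.592% in the nearest pre library. The share not aligned uniquely was 50.3%, with 10.3% in the nearest, and the share in no gene was 49.4%, with 89.0% in the nearest. Pre 2046 had 18 genes high in it alone, with 5 in the nearest.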

How the results depend on the processing

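The count of 0 genes in the left ovary was the same in 22 of 25 alternatives, among them DESeq2, voom and each animal left out. It was 4 without a filter on low counts and 2 within each of the library sets in the file names. Without that filter the spread test called 1015 of 15815 genes, and the test of left against right called 6 of 17086. Leaving out each animal gave 0 to 11 calls for left against right, the 11 without 2057. The fit with no replicate block (animals not paired) and DESeq2 with the replicate block gave 0. The 50 right ovary calls became 161 with DESeq2, 265 without a filter and 21 to 89 with an animal left out.

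The distance difference, 0.0080, was -0.011 with a stricter filter and -0.0074 to 0.016 with an animal left out. With an animal left out, post minus pre library measures ranged from -6365 to 12280 gene reads, -0.033 to 0.035 percentage points of reads in genes, -5.61 to 4.42 in no gene, -4.46 to 5.64 not unique and -315.5 to 157.7 genes detected.

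Chosen after seeing the data, the alternatives for the median of 1.96 in post 2057 gave 1.49 by library size only, 1.82 with a prior count of 5, 1.81 with the 131 genes of DESeq2 and 1.59 with the 182 genes found without a filter. Library size alone moves the median of all tested genes in post 2057 to -0.49, and relative to it the list lies at 1.98, with TMM at 2.02. The 63 genes were 38 by library size only, 25 at more than 4 times the next library and 40 with at least 50 counts. The cause of these shifts was not tested. Few reads in genes limit what could be detected.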
